A study of Homo sapiens with 4 samples.

Results

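The MYC and MAX network is a set of transcription factors that compete for shared dimerisation partners. The genes were chosen by symbol, MYC, MYCN, MYCL, MAX, MXI1, MXD1, MXD3, MXD4, MNT and MLX, and all 10 matched 1 entry each among the 19225 entries of the count table. RNA-seq was available from 4 libraries of established human hepatocellular carcinoma (HCC) lines, 1 each of HCC-LM3 sh-WDR4-2, HCC-LM3 sh-NC, Huh-7 sh-WDR4-2 and Huh-7 sh-NC. HCC-LM3 is an HCC line with high metastatic potential and Huh-7 is a hepatoma line. By the methods of the study, the cells were stable lines made with a lentivirus that carried either a short hairpin RNA against WDR4 (sh-WDR4-2) or a scrambled hairpin (sh-NC). Whether each line was a pool or 1 clone is not given in the sources at hand. WDR4 encodes the partner subunit of METTL1 in the tRNA m7G methyltransferase. The study concluded that MYC activates WDR4. It cited a prediction from databases, a positive correlation of WDR4 and MYC mRNA in HCC tissue, and lower WDR4 after MYC knockdown. It further cited a promoter reporter that depended on the MYC site, and MYC at the promoter by chromatin immunoprecipitation. The libraries can be asked the reverse question, how MYC and its network stand in cells that carry the hairpin against WDR4. All libraries were labelled 48 h. The treatment labels disagree with each other, since one sh-WDR4-2 library is labelled as transduced with WDR4 and the Huh-7 one as transfected with siRNA, and the libraries are therefore named by their source labels.

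MYC, MYCN and MYCL cannot act alone. Each pairs with MAX, and the dimer binds the E-box CACGTG and activates genes of growth, ribosome production and metabolism. The MXD proteins, MXI1 (also called MXD2) and MNT also pair with MAX, bind the same E-box and recruit SIN3 and histone deacetylases, which lowers transcription. MLX is a second shared partner that pairs with MXD1, MXD4 and MNT and with the glucose-sensing factors MLXIP (MondoA) and MLXIPL (ChREBP). In the liver, MYC is a classical driver of growth and of carcinoma.

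The promoters that bear on the results are shown here from RefSeq on GRCh38.p14, where 9 of the members had at least 1 entry of 300 bases, from 250 before the transcription start to 50 after it. The WDR4 and MXI1 windows are printed whole, WDR4 as the targeted gene and MXI1 as the member with the largest difference between the shRNAs. Of 3 MXI1 starts only the second is shown. The deposited counts are per gene and do not tell which start was used. Capitals in these windows mark ACGTG or GCGTG on either strand (read on the other strand as CACGT or CACGC), the core letters of the hypoxia response element, which 48.4% of all 35116 promoter windows hold at least once.
WDR4 (chr21:42879490-42879789, minus strand): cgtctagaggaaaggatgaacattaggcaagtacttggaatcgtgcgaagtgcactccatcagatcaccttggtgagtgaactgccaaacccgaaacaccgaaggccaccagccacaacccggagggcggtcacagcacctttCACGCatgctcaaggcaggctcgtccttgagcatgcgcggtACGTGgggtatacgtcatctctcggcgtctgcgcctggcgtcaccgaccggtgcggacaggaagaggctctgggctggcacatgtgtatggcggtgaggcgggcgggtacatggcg
MXI1 (chr10:110209981-110210280, plus strand): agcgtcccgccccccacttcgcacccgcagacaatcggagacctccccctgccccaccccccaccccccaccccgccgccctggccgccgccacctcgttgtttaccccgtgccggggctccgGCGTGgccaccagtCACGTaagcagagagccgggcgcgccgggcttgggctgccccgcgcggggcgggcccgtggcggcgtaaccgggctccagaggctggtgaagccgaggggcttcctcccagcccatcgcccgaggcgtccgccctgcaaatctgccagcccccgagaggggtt
In the WDR4 window the matches began at positions −107 and −66 from the start, and in the MXI1 window at −127 and −113. The window of the first MXI1 start held 0 such matches, and that of the third held 2, at −131 and 8.

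The E-box CACGTG, which reads the same on both strands and contains ACGTG, was found in the promoter windows of 3 members, MXD4, MNT and MLX. The 9 members with a promoter entry had 12 windows, and the E-box was in 7.26% of all windows. The 3 matches are shown with their flanks and the E-box in capitals, as CACGTG is the E-box named above.
MXD4 (chr4:2262312-2262359, minus strand): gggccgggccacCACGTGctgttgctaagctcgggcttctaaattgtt
MNT (chr17:2401218-2401283, minus strand): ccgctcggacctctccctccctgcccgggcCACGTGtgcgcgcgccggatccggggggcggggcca
MLX (chr17:42567020-42567085, plus strand): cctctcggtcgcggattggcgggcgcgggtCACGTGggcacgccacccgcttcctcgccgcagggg
The E-box began at position −238 in MXD4, −193 in MNT and −50 in MLX. None was found in the windows of MYCN, MYCL, MAX, MXI1, MXD1, MXD3 or WDR4, and MYC had no promoter entry. The letters CACGCG or CGCGTG, held by 11.4% of all windows, were found in those of MXD3 and of the third MXI1 start. These are matches of letters, and no binding was measured in these libraries. Only the letters named here were searched, so other forms of the E-box may lie in these windows, that of WDR4 included. The MYC site that the study tested at WDR4 was not located here, and the window shown need not hold it.

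Counts ran from 29807047 to 40572251 per library. WDR4 had 1009 counts in the HCC-LM3 sh-WDR4-2 library and 1604 counts in the HCC-LM3 control, which gave −0.22 on the log2 scale with a 95% counting interval from −0.34 to −0.11. The Huh-7 libraries held 990 WDR4 counts with sh-WDR4-2 and 1077 with sh-NC, which gave −0.02 (−0.15 to 0.11). The targeted transcript was thus little or not detectably lower, and directions below refer to the libraries labelled sh-WDR4-2. The hepatoma identity could not be shown from marker genes. ALB and TTR were at 0 counts in all 4 libraries. AFP had at most 6 counts, SERPINA1 at most 7, and FGB and TF at most 2 counts each. HNF4A had 4 and 8 counts in HCC-LM3 cells but 1980 and 2033 counts in Huh-7 cells. The 4 fibroblast markers had 12.2 to 177 CPM over the HCC-LM3 libraries. Of these, COL1A1 was also abundant in Huh-7, at 118 CPM with sh-WDR4-2 and 116 CPM with sh-NC. COL3A1, DCN and LUM had at most 4 counts in that line. The 6 retina markers, retina being a word in one extraction label, summed to at most 0.460 CPM. Unlike ALB and TTR, the liver genes APOA1 and APOB were listed as abundant in every library. APOA1 had 97.7 to 124 CPM and APOB 89.9 to 111 CPM, but neither symbol is secure. The symbols of APOA1 and APOB, and other entries, 204 in all without those turned into dates, stood out of the order that the remaining symbols of the table follow and may have been exchanged. Among the members this concerned MYCN alone.

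MYC was the most abundant member in every library. Levels of different genes are compared per length, in the FPKM of the deposited table (counts scaled to transcript length and library total). MYC (chromosome 8, 127735434 to 127741434, plus strand of GRCh38, GENCODE release 29) had 95.5 FPKM in HCC-LM3 sh-WDR4-2 cells and 95.8 FPKM in HCC-LM3 sh-NC cells. In Huh-7 cells it had 222 FPKM with sh-WDR4-2 and 246 FPKM with sh-NC. All 4 values lay above those of at least 96.2% of the entries of their library. MYC was lower in both HCC-LM3 libraries than in both Huh-7 libraries. In CPM the cell lines did not overlap for 89.3% of all genes.

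The other MYC family genes were scarce. MYCL (chromosome 1, 39895426 to 39902256, minus strand) had 86 counts in HCC-LM3 sh-WDR4-2 cells and 131 counts in HCC-LM3 sh-NC cells, or 0.970 and 1.08 FPKM. It had 39 counts in Huh-7 sh-WDR4-2 cells and 46 counts in Huh-7 sh-NC cells, or 0.358 and 0.394 FPKM. MYC therefore made up at least 98.9% of the summed FPKM of the family in each library. MYCN (chromosome 2, 15940564 to 15947007, plus strand), best known from neuroblastoma, was listed at 0 counts in all 4 libraries, which allows at most 3 counts or 0.0690 to 0.0940 CPM by library. By the order of the table the MYCN symbol may belong to the entry listed as BOLA2, which held 22 counts in HCC-LM3 sh-WDR4-2 and 14 counts in HCC-LM3 sh-NC, and 2 counts in Huh-7 sh-WDR4-2 and 20 counts in Huh-7 sh-NC. The length behind that entry's FPKM was 2579 bases, against 2602 bases for the nearest MYCN transcript and 1442 bases for the nearest BOLA2 transcript in GENCODE. Under either reading MYCN had at most 0.689 CPM in each library.

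MAX and MLX, the shared partners, lay well below MYC. MAX (chromosome 14, 65006174 to 65102695, minus strand) had 50.1 FPKM in HCC-LM3 sh-WDR4-2 cells and 53.2 FPKM in HCC-LM3 sh-NC cells, and 30.9 FPKM in Huh-7 sh-WDR4-2 cells and 35.8 FPKM in Huh-7 sh-NC cells. MLX (chromosome 17, 42567068 to 42573239, plus strand) had 25.1 FPKM in HCC-LM3 sh-WDR4-2 cells and 27.0 FPKM in HCC-LM3 sh-NC cells, and 19.2 FPKM in both Huh-7 libraries. Both partners were higher in HCC-LM3 cells, the line in which MYC was lower. MYC family transcripts summed to 1.92 times the MAX level in HCC-LM3 sh-WDR4-2 cells and 1.82 times in HCC-LM3 sh-NC cells, against 7.21 times in Huh-7 sh-WDR4-2 cells and 6.88 times in Huh-7 sh-NC cells.

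**Figure D1:**
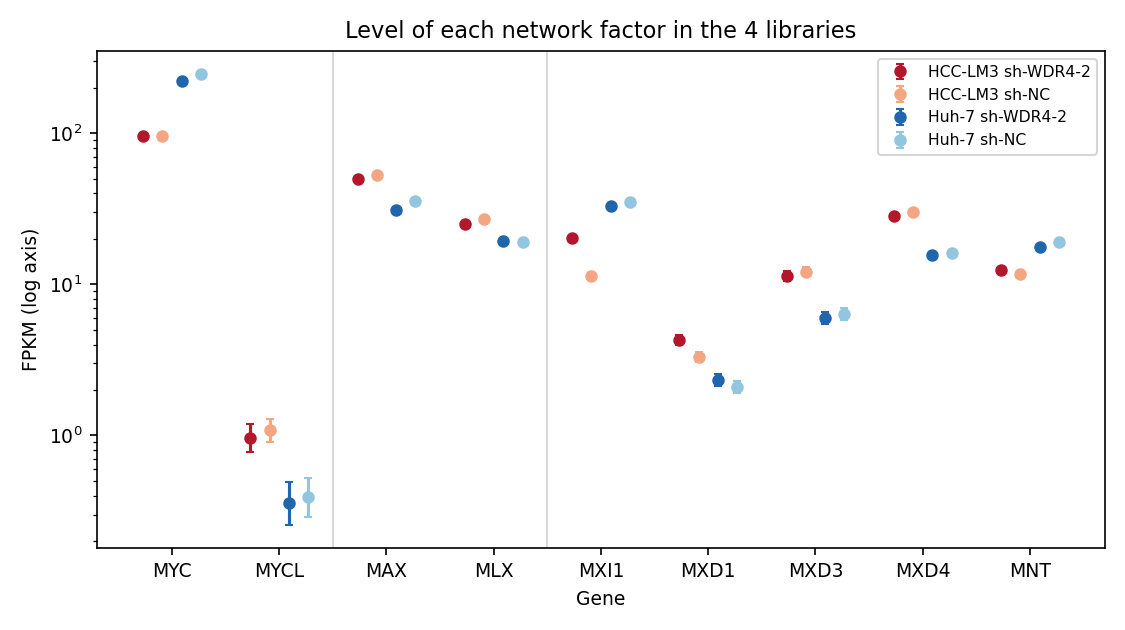
FPKM of each detected network factor (log axis) in the 4 libraries, 1 point per library with its 95% counting interval, with vertical lines between the MYC family, the shared partners and the antagonists. MYC lay highest in all libraries at 95.5 to 246 FPKM, and MYCL lowest at 0.358 to 1.08 FPKM.

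Among the antagonists, the leading gene differed between the cell lines. MXD4 (chromosome 4, 2247432 to 2262294, minus strand), the MXD family member typical of differentiating and resting cells, led in HCC-LM3 cells with 28.1 FPKM under sh-WDR4-2 and 30.3 FPKM under sh-NC, against 15.7 FPKM in Huh-7 sh-WDR4-2 and 16.2 FPKM in Huh-7 sh-NC cells. MXI1 (chromosome 10, 110207605 to 110287365, plus strand) had 20.4 FPKM in HCC-LM3 sh-WDR4-2 cells and 11.3 FPKM in HCC-LM3 sh-NC cells. It led in Huh-7 cells, with 32.9 FPKM under sh-WDR4-2 and 35.1 FPKM under sh-NC. MNT (chromosome 17, 2384060 to 2401118, minus strand), the antagonist expressed in most cells and a counterweight to MYC, had 12.5 FPKM in HCC-LM3 sh-WDR4-2 and 11.7 FPKM in HCC-LM3 sh-NC cells, and 17.6 FPKM in Huh-7 sh-WDR4-2 and 19.0 FPKM in Huh-7 sh-NC cells.

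MXD1 was the scarcest antagonist in every library, and MXD3 the next in all but HCC-LM3 sh-NC cells, where it stood just above MNT and MXI1. MXD3 (chromosome 5, 177301461 to 177312757, minus strand), the family member linked to proliferating cells, had 11.3 FPKM with sh-WDR4-2 and 12.2 FPKM with sh-NC in HCC-LM3 cells, and 5.97 FPKM with sh-WDR4-2 and 6.39 FPKM with sh-NC in Huh-7 cells. MXD1 (chromosome 2, 69897688 to 69942945, plus strand), first described as a partner of MAX that rises as cells differentiate, had 4.30 FPKM with sh-WDR4-2 and 3.32 FPKM with sh-NC in HCC-LM3 cells, and 2.35 FPKM with sh-WDR4-2 and 2.09 FPKM with sh-NC in Huh-7 cells. Both were higher in each HCC-LM3 library than in each Huh-7 library, where 89.3% of all genes did not overlap between the lines in CPM. Exons of MXD3 overlap those of PRELID1 on the other strand and RAB24 on the same strand, by 1158 and 926 bases in GENCODE. PRELID1 had 4382 and 7311 counts in HCC-LM3 cells (sh-WDR4-2 and sh-NC) and 3240 and 3170 counts in Huh-7 cells. RAB24 had 1396 and 2167 counts in HCC-LM3 cells and 757 and 904 counts in Huh-7 cells. MLX shares 770 exon bases with PSMC3IP on the other strand and MXD1 shares 237 bases with SNRNP27 on the same strand. MAX, MNT, MXI1 and MYCL overlap antisense RNAs that were not analysed here, and whether reads were counted by strand is not given in the sources at hand.

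The order of the levels was nearly the same with either hairpin. In HCC-LM3 sh-WDR4-2 cells it ran MYC, MAX, MXD4, MLX, MXI1, MNT, MXD3, MXD1, MYCL and MYCN, and the counting intervals overlapped only between MNT and MXD3. In HCC-LM3 sh-NC cells MXI1 stood after MXD3 and MNT, and these 3 were neighbours with overlapping intervals. In Huh-7 sh-WDR4-2 cells the order was MYC, MXI1, MAX, MLX, MNT, MXD4, MXD3, MXD1, MYCL and MYCN, with overlap between MXI1 and MAX. The Huh-7 sh-NC library had MAX before MXI1, again with overlapping intervals, and MLX and MNT also overlapped there. The order and the ratios to MAX also rest on the lengths behind the FPKM. Among the members only the length of MYC equalled that of a GENCODE transcript. In CPM, without division by length, MXD4 at 99.0 stood above MAX at 65.8 in HCC-LM3 sh-WDR4-2 cells. In both Huh-7 libraries MXI1, MNT and MXD4 stood above MAX in CPM.

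Next, the libraries labelled sh-WDR4-2 were compared with sh-NC within each cell line. With 1 library per group there is no replicate check and no p-value. A gene was counted past the threshold at an absolute log2 fold change over 1, which is 2-fold, on the log2(CPM + 0.5) scale, where CPM are counts scaled to the library total with TMM factors. In HCC-LM3 cells 0 of the 9 members with a mean of at least 1 CPM passed 2-fold, where 0.260% of all 12683 genes did. In Huh-7 cells 0 of 9 passed, where 0.109% of 11971 genes did. The median log2 fold change of the members was −0.09 in both cell lines, beside −0.0033 over all genes in HCC-LM3 cells and −0.0021 in Huh-7 cells.

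MXI1 was the member that differed most. It had 1980 counts (62.0 CPM) in HCC-LM3 sh-WDR4-2 cells and 1496 counts (34.4 CPM) in HCC-LM3 sh-NC cells, 1.79-fold higher, which is 0.84 on the log2 scale (counting interval 0.75 to 0.95). Only 51 of the 12683 genes had a higher one. It was the 1 member of 9 past 1.5-fold in that line, where 1.84% of all genes were. In Huh-7 cells MXI1 had 3923 counts (115 CPM) with sh-WDR4-2 and 4495 counts (123 CPM) with sh-NC, or −0.09 on the log2 scale (−0.16 to −0.03), and 0 of 9 members were past 1.5-fold, where 0.936% of all genes were. The HCC-LM3 sh-WDR4-2 library thus stood between the HCC-LM3 sh-NC library and both Huh-7 libraries. In bulk RNA, a larger share of cells with the transcript and more of it per cell cannot be told apart. The log2 fold changes of the 2 cell lines differed by 0.93 (counting interval 0.82 to 1.05), and 0.546% of genes differed by as much in either direction.

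Genes that respond to low oxygen were higher in that same library. Of 12 hypoxia markers, 12 were higher in HCC-LM3 sh-WDR4-2 cells, with a median log2 fold change of 0.97. Past 1.5-fold were 9 of them, where 1.84% of all genes were either way, and past 2-fold were 6, where 0.260% were. In Huh-7 cells 8 were higher and 4 lower, with a median of 0.07, and none was past 1.5-fold, where 0.936% of all genes were. The list was chosen with earlier results of these data known, so these counts are a description and no independent support. MXI1, itself known as a gene that responds to the hypoxia-inducible factors in human cancer cells, lay within the range of the markers in HCC-LM3 cells, below ENO2, an enolase of glycolysis, at 1.19 and above PDK1, a kinase that restrains pyruvate oxidation, at 0.75. The summed level of the markers was 1705 CPM in HCC-LM3 sh-WDR4-2 and 833 CPM in HCC-LM3 sh-NC cells, against 2591 CPM in Huh-7 sh-WDR4-2 and 2637 CPM in Huh-7 sh-NC cells. NDRG1 alone held 652 and 245 CPM of these in HCC-LM3 cells (sh-WDR4-2 and sh-NC) and 1605 and 1663 CPM in Huh-7 cells. CA9 was higher in HCC-LM3 cells, at 50 and 14 CPM against 7.4 and 7.1 CPM. The sums therefore do not rank the cell lines for the markers as a set. The HCC-LM3 sh-WDR4-2 library was also the shallowest and the only one labelled lane 4, the others being lane 3. The part of oxygen supply, depth or lane in the MXI1 difference was not tested.

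**Figure D2:**
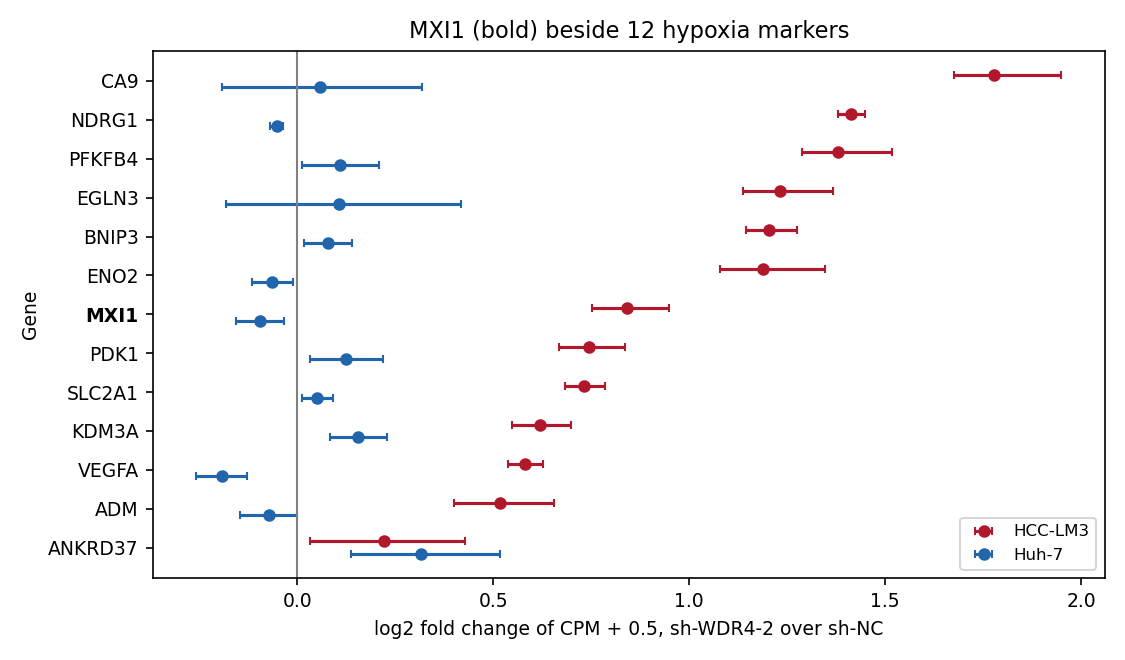
Log2 fold change of sh-WDR4-2 over sh-NC on the log2(CPM + 0.5) scale for MXI1 (bold) and 12 hypoxia markers, HCC-LM3 in red and Huh-7 in blue, with 95% counting intervals. In HCC-LM3 cells MXI1 stood at 0.84 between ENO2 at 1.19 and PDK1 at 0.75, and in Huh-7 cells it stood at −0.09.

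MYC itself showed no detectable difference in HCC-LM3 cells. It had 6737 counts (211 CPM) in HCC-LM3 sh-WDR4-2 and 9192 counts (212 CPM) in HCC-LM3 sh-NC cells, and the log2 fold change was −0.0031 (counting interval −0.05 to 0.04). Huh-7 cells held 19262 MYC counts (564 CPM) with sh-WDR4-2 and 22804 counts (622 CPM) with sh-NC, a log2 fold change of −0.14 (−0.17 to −0.11). This value lay outside counting error, yet 12.5% of the genes tested in Huh-7 cells had a lower one. The spread between cultures could not be estimated.

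MAX was slightly lower in both sh-WDR4-2 libraries. It had 2102 counts (65.8 CPM) in HCC-LM3 sh-WDR4-2 and 3038 counts (69.9 CPM) in HCC-LM3 sh-NC cells, a log2 fold change of −0.09 (−0.17 to −0.0055). In Huh-7 cells it had 1592 counts (46.6 CPM) with sh-WDR4-2 and 1975 counts (53.9 CPM) with sh-NC, at −0.21 (−0.31 to −0.11). For MLX the HCC-LM3 libraries gave −0.10 (−0.19 to −0.02), and the Huh-7 libraries gave 0.0078 (−0.09 to 0.10).

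MXD1 was the second largest difference in HCC-LM3 cells. It had 719 counts (22.5 CPM) with sh-WDR4-2 and 755 counts (17.4 CPM) with sh-NC there, a log2 fold change of 0.37 (0.23 to 0.52), and 481 counts (14.1 CPM) with sh-WDR4-2 and 459 counts (12.5 CPM) with sh-NC in Huh-7 cells, a log2 fold change of 0.16 (−0.02 to 0.36). It was the 1 member with a positive log2 fold change over 0.1 in both cell lines. For MNT the HCC-LM3 libraries gave 0.10 (0.0085 to 0.19), and the Huh-7 libraries gave −0.11 (−0.18 to −0.04). Those of MXD3, MXD4 and MYCL were −0.10, −0.11 and −0.14 in HCC-LM3 cells, and −0.09, −0.05 and −0.10 in Huh-7 cells.

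By counting error alone, 3 of 9 members were higher in HCC-LM3 sh-WDR4-2 cells (MXI1, MXD1 and MNT), where 20.6% of all genes were, and 3 were lower (MAX, MXD4 and MLX), where 21.5% of all genes were. In Huh-7 cells 0 of 9 were higher, where 15.0% of all genes were, and 4 were lower (MYC, MAX, MXI1 and MNT), where 15.1% of all genes were. Such intervals leave out the spread between libraries, and PCR copies are not independent molecules.

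**Figure D3:**
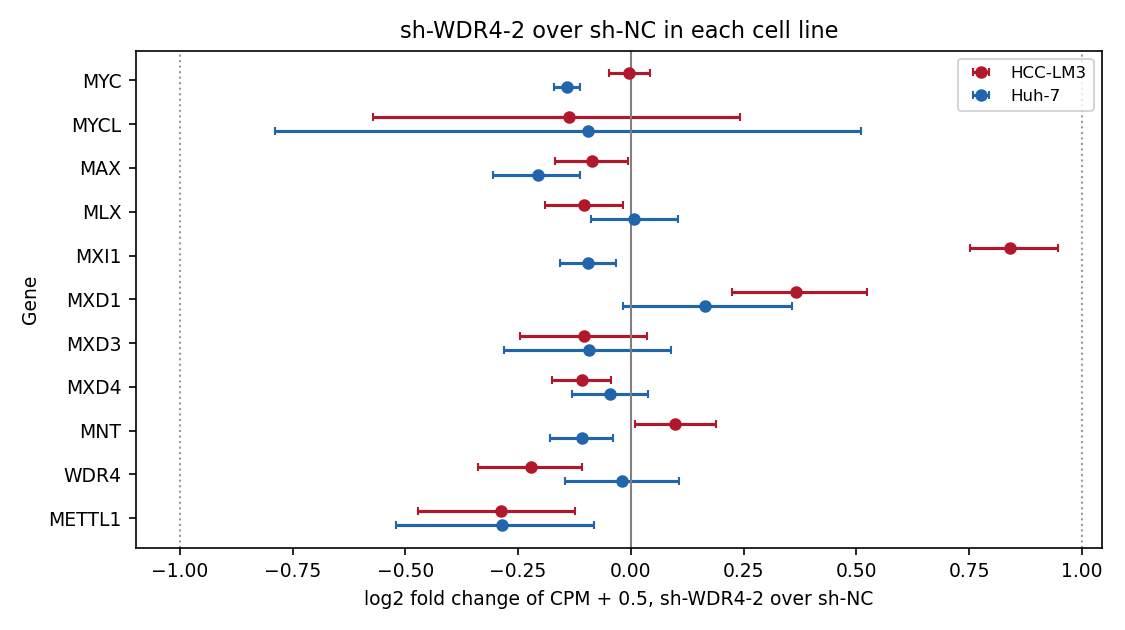
Log2 fold change of sh-WDR4-2 over sh-NC on the log2(CPM + 0.5) scale for each detected member, WDR4 and METTL1, HCC-LM3 in red and Huh-7 in blue, with 95% counting intervals and dotted lines at 2-fold. MXI1 in HCC-LM3 cells stood apart at 0.84, and no member crossed 2-fold.

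An effect of sh-WDR4-2 shared by the cell lines was sought with the quasi-likelihood test of edgeR on the counts of all 4 libraries, with the cell line as a block, 1 residual degree of freedom and Benjamini-Hochberg adjustment over 12693 genes. It called 0 of 9 members, where 0.0158% of all genes (2 genes) were called. At an unadjusted p under 0.05 it gave 1 member, MXD1, and 5.11% of all genes, while DESeq2 called 0 members and 2 of all genes adjusted, and gave 0 members and 1.15% of all genes unadjusted. MXD1 had a fitted log2 fold change of 0.28 ± 0.11 (SE) and an edgeR adjusted p of 0.968. For MXI1 the fit gave 0.35 ± 0.44 (SE, edgeR adjusted p = 0.979), with the cell lines on either side of 0, and for MYC −0.07 ± 0.05 (SE, edgeR adjusted p = 0.969). A missed threshold does not show that levels were alike.

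Between the cell lines the network differed far more than between the hairpins. The same fit in edgeR compared HCC-LM3 with Huh-7 cells over 2 libraries each, 1 of each hairpin. It called 8 of 9 members, 6 of them higher in HCC-LM3 cells, where 38.9% of all genes were called higher, and 2 lower, where 38.9% were called lower. As 77.8% of the 12693 genes were called either way, the number of members called says little by itself, and the sizes carry the description. The absolute log2 fold change had a median of 0.73 over the 9 members and 0.53 over all genes. No separate cultures are stated, and these p-values do not measure a spread between replicate libraries. They rest on how far the cell line difference varied between the hairpins, with 1 residual degree of freedom, and on a spread shared over all genes.

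MYC had the largest fitted difference of the members over both hairpins, although MXI1 differed more with sh-NC alone. It had 211 and 212 CPM in the HCC-LM3 libraries (sh-WDR4-2 and sh-NC) and 564 and 622 CPM in the Huh-7 libraries, a log2 fold change of −1.49 ± 0.05 (SE, edgeR adjusted p = 2.7e-14), so that it was 2.81-fold higher in Huh-7. Within the hairpins it was −1.42 with sh-WDR4-2 and −1.56 with sh-NC. MNT, the only other member called lower in HCC-LM3 cells, had 56.4 and 52.7 CPM in HCC-LM3 cells and 91.5 and 98.6 CPM in Huh-7 cells, −0.80 ± 0.07 (SE, edgeR adjusted p = 1.1e-08). The main activator and the broadly expressed antagonist were thus both lower in HCC-LM3.

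MXI1 was also lower in HCC-LM3 cells, with 62.0 and 34.4 CPM against 115 and 123 CPM in Huh-7 cells, but it did not pass the test. Its fitted log2 fold change was −1.36 ± 0.44 (SE, edgeR adjusted p = 0.199), with −0.88 under sh-WDR4-2 and −1.82 under sh-NC. In fits with the cell line as the only term, the log2 fold change was −1.78 without the HCC-LM3 sh-WDR4-2 library and −0.94 without the HCC-LM3 sh-NC library, and it was called in both cases, where the lone HCC-LM3 library was assumed to vary like the Huh-7 ones. With that term alone and all 4 libraries, an alternative chosen after seeing the data, it was −1.31 and not called. DESeq2 also called it, at −1.34.

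The members higher in HCC-LM3 cells were MYCL, MXD3, MXD4, MXD1, MAX and MLX. MYCL had 2.69 and 3.01 CPM in HCC-LM3 cells and 1.14 and 1.26 CPM in Huh-7 cells, a log2 fold change of 1.25 ± 0.32 (SE, edgeR adjusted p = 0.0016). MXD3 was at 0.73 ± 0.11 (SE, edgeR adjusted p = 7.5e-06), with 21.8 and 23.4 CPM in HCC-LM3 cells against 13.2 and 14.1 CPM in Huh-7 cells. Its overlapping genes PRELID1 and RAB24 also had more counts in both HCC-LM3 libraries, and the part of shared reads in the MXD3 difference was not tested. MXD4 was at 0.67 ± 0.06 (SE, edgeR adjusted p = 1.8e-08), with 99.0 and 107 CPM in HCC-LM3 cells against 63.5 and 65.6 CPM in Huh-7 cells. These 3 MAX partners, 1 activator and 2 antagonists, were all higher in the line where MYC was lower. MXD1 followed at 0.57 ± 0.12 (SE), MAX at 0.43 ± 0.07 (SE) and MLX at 0.24 ± 0.07 (SE), with edgeR adjusted p from 2.5e-05 to 0.0066. In CPM the libraries of the cell lines did not overlap for 9 of 9 members, where 89.3% of all genes did not.

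The partners of MAX and MLX outside the list differed in the same fit. MLXIP (MondoA), which pairs with MLX, had 123 and 113 CPM in HCC-LM3 cells and 286 and 278 CPM in Huh-7 cells, a log2 fold change of −1.26 ± 0.05 (SE, edgeR adjusted p = 3.6e-13), although MLX itself was higher in HCC-LM3. MGA, a large MAX partner of a repressive complex, was at −0.63 ± 0.05 (SE, edgeR adjusted p = 4.5e-09). MLXIPL (ChREBP) was at −0.24 ± 0.09 (SE, edgeR adjusted p = 0.027), a call that was lost with scaling by library size only, at −0.04, and with DESeq2. That scaling moved the median of all genes between the cell lines from 0.0052 to 0.21 on the log2 scale, and the share of the calls that were higher in HCC-LM3 cells from 50.01% to 62.82%. Every member kept its sign under it.

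**Figure D4:**
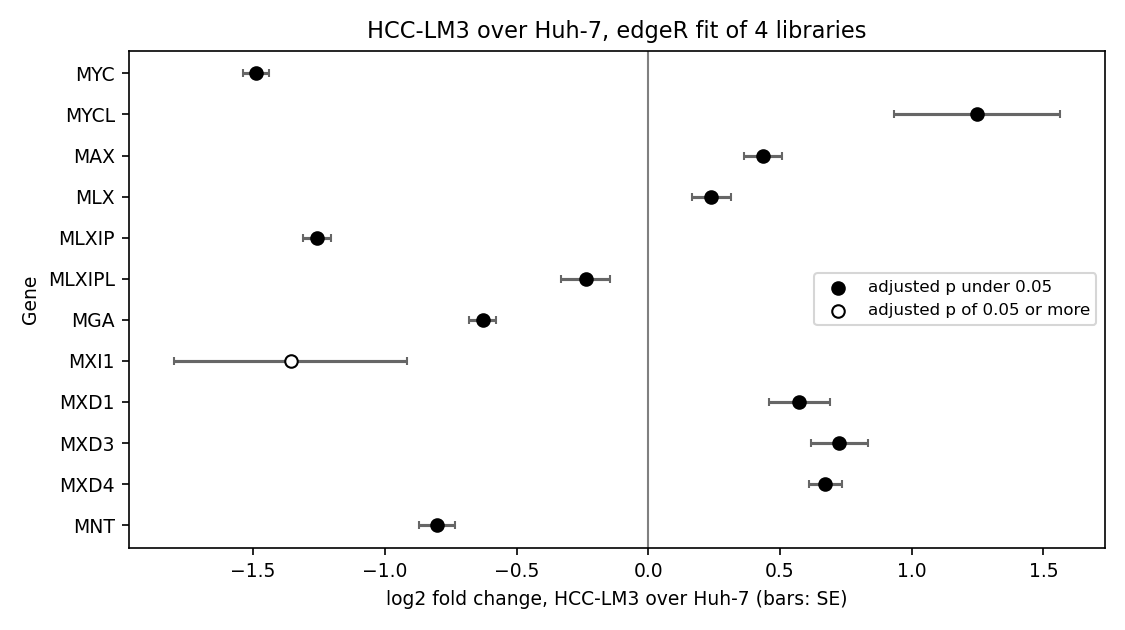
Log2 fold change of HCC-LM3 over Huh-7 in the edgeR fit of 4 libraries for the detected members and for MLXIP, MLXIPL and MGA, with SE bars, filled where the adjusted p was under 0.05. MYC lay lowest at −1.49 and MYCL highest at 1.25, and MXI1 had the widest error at −1.36 ± 0.44.

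The balance of activator and antagonist transcripts was then taken per length in each library, as the summed FPKM of MYC, MYCN and MYCL over that of MXI1, MXD1, MXD3, MXD4 and MNT. The ratio was 1.26 in HCC-LM3 sh-WDR4-2 cells and 1.41 in HCC-LM3 sh-NC cells, with log2 values of 0.33 (0.29 to 0.38, counting interval) and 0.49 (0.45 to 0.54). In Huh-7 cells it was 2.99 with sh-WDR4-2 and 3.12 with sh-NC, with log2 values of 1.58 (1.54 to 1.62) and 1.64 (1.61 to 1.67). The summed antagonist level lay between 68.7 and 78.9 FPKM in all libraries, so the difference in the ratio between the cell lines followed MYC. FPKM leave out the TMM factors, 1.07 in both HCC-LM3 libraries and 0.93 in both Huh-7 libraries. These factors cancel in the ratio, but the likeness of the sums depends on leaving them out. The ratios are of transcripts and say nothing of the proteins.

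The composition of the antagonists differed more between libraries than their sum. MXI1 made up 26.6% of the antagonist FPKM in HCC-LM3 sh-WDR4-2 cells and 16.4% in HCC-LM3 sh-NC cells, against 44.1% in Huh-7 sh-WDR4-2 and 44.5% in Huh-7 sh-NC cells. MXD4 made up 36.7% with sh-WDR4-2 and 44.1% with sh-NC in HCC-LM3 cells, and 21.1% with sh-WDR4-2 and 20.6% with sh-NC in Huh-7 cells. With MXI1 left out of the antagonists, an alternative chosen after seeing the data, the log2 ratio was 0.78 in HCC-LM3 sh-WDR4-2 and 0.75 in HCC-LM3 sh-NC cells, so the lower ratio with sh-WDR4-2 in that line rested on MXI1. Without division by length the HCC-LM3 values turned negative, at −0.29 with sh-WDR4-2 and −0.13 with sh-NC.

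**Figure D5:**
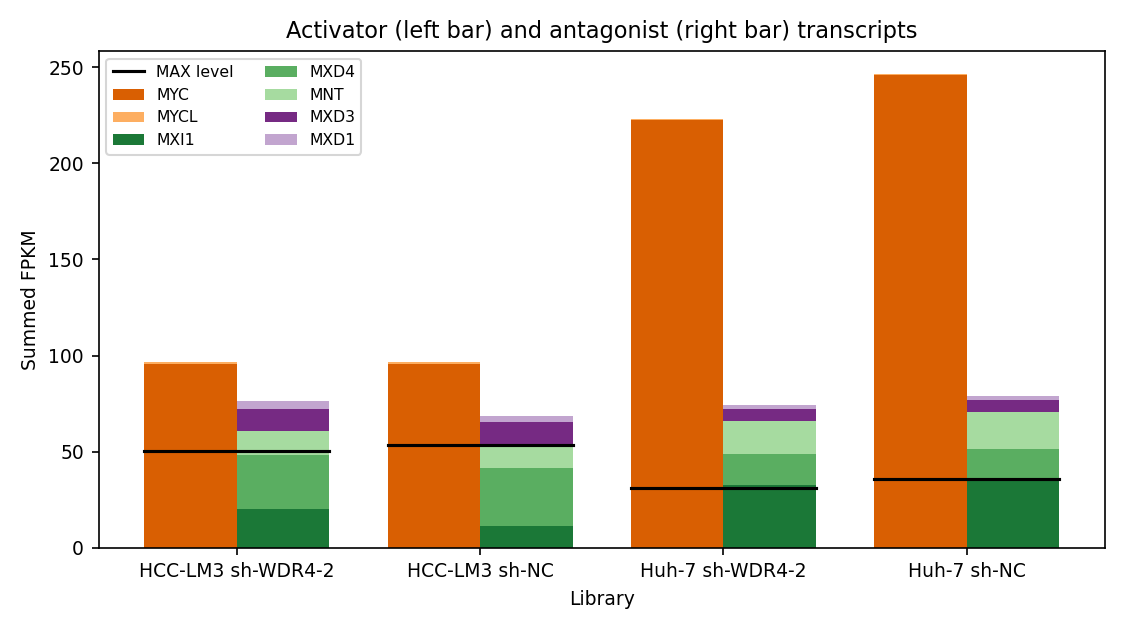
Summed FPKM of the MYC family (left bar) and of the antagonists (right bar) in each library, with the MAX level as a black line. The antagonist bars stand between 68.7 and 78.9 FPKM in all libraries, and the MYC family bars at 96.5 and 96.8 FPKM in HCC-LM3 and 223 and 246 FPKM in Huh-7 cells.

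The genes whose pattern over the 4 libraries was most like that of MYC were found by the Euclidean distance of centred log2(CPM + 0.5) values among 9938 other genes of at least 10 CPM. They were PTMS, at a distance of 0.02, then WDR25 and RARG at 0.04 each, and CAMK1D and RYR2 at 0.06 each. PTMS, for example, had 114 CPM with sh-WDR4-2 and 116 CPM with sh-NC in HCC-LM3 cells, and 302 CPM with sh-WDR4-2 and 340 CPM with sh-NC in Huh-7 cells. With 4 points that fall into 2 cell lines such likeness is a description.

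Genes that the network acts on were read from lists. Of 63 MYC-activated genes, 61 were tested, and in HCC-LM3 cells 28 were higher and 33 lower with sh-WDR4-2, with a median log2 fold change of −0.02. HK2, a hexokinase, was at 0.91 (4469 counts with sh-WDR4-2 and 3235 counts with sh-NC) and LDHA, lactate dehydrogenase A, at 0.63, and both are also genes of the hypoxic response. AIMP2, a scaffold of the tRNA synthetase complex, was at −0.37, and FBL, a nucleolar methyltransferase, at 0.28. In Huh-7 cells 33 were higher and 28 lower, with a median of 0.0045, and HK2 was at −0.0065. The symbols of NOP16, PLK1 and EIF4E in this list stood out of order, and NOP16 was the third gene past 1.5-fold in HCC-LM3 cells and the 1 past it in Huh-7 cells.

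Of 14 genes that MYC is known to repress, 7 of the 13 measured were higher and 6 lower in HCC-LM3 sh-WDR4-2 cells, with a median of 0.02, and 6 of 12 were higher in Huh-7 sh-WDR4-2 cells, with a median of −0.0076. NDRG1 was the 1 past 2-fold, at 1.41 in HCC-LM3 cells, and it is a hypoxia marker as well. THBS1, which encodes thrombospondin, was at −0.31 in HCC-LM3 cells and 0.19 in Huh-7 cells. GADD45A, a growth arrest gene, was at −0.20 in HCC-LM3 cells and −0.19 in Huh-7 cells, and CEBPA, a liver transcription factor, at 0.17 in HCC-LM3 cells and −0.11 in Huh-7 cells. CDKN1A was listed at 0 counts in all libraries, and its symbol stood out of order. Of 5 measured targets of MLX and MondoA, 4 were higher in HCC-LM3 sh-WDR4-2 cells and 3 in Huh-7 sh-WDR4-2 cells. TXNIP, the best known of them and a brake on glucose uptake, was at 0.06 in HCC-LM3 cells and −0.29 in Huh-7 cells. PFKFB3, a driver of glycolysis, KLF10, a transcription factor, and ARRDC4, an arrestin-like protein, were at 0.35, 0.22 and 0.14 in HCC-LM3 cells and at 0.10, 0.08 and −0.03 in Huh-7 cells.

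The machinery around the network differed little between the hairpins. Of 19 measured cofactors of MYC and MAX dimers, 12 were higher and 7 lower in HCC-LM3 sh-WDR4-2 cells (median 0.03) and 10 were higher and 9 lower in Huh-7 sh-WDR4-2 cells (median 0.00055), none past 1.5-fold. SAP30, a subunit of the SIN3 and histone deacetylase complex that MXD proteins recruit, had the largest difference, 0.45 in HCC-LM3 cells and −0.37 in Huh-7 cells. WDR5, a MYC-binding subunit of histone methyltransferases, KAT5, an acetyltransferase, and SIN3B, a scaffold of repression, were at 0.21, −0.10 and −0.14 in HCC-LM3 cells and at −0.0019, −0.09 and 0.04 in Huh-7 cells. Of 18 regulators of MYC protein turnover, 8 were higher and 10 lower in HCC-LM3 sh-WDR4-2 cells (median −0.02) and 9 were higher and 9 lower in Huh-7 sh-WDR4-2 cells (median 0.00049). USP36 and USP28, deubiquitinases that stabilise MYC, were at −0.16 and 0.15 in HCC-LM3 cells, and at −0.13 and 0.10 in Huh-7 cells. OTUB1 was at 0.05 and STUB1 at −0.13 in HCC-LM3 cells, and 0.17 and −0.08 in Huh-7 cells. Of the 6 other proteins that bind MYC, MAX or MLX, 4 were higher and 2 lower in HCC-LM3 sh-WDR4-2 cells. With sh-WDR4-2 in Huh-7, 3 were higher and 3 lower. MLXIPL differed most and was lower with sh-WDR4-2 in each line. Its HCC-LM3 value was −0.29 (counting interval −0.44 to −0.16), and its Huh-7 value was −0.18 (−0.31 to −0.05). The edgeR fit of a common effect gave MLXIPL −0.24 ± 0.09 (SE, unadjusted p = 0.019, adjusted p = 0.939). MYCBP, a MYC-binding protein, was at 0.18 in HCC-LM3 and 0.13 in Huh-7. ZBTB17, a factor through which MYC represses, was at 0.08 and 0.02, and MLXIP at 0.13 and 0.04.

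The edgeR test of both cell lines called 0 genes of these lists for a common effect, and at an unadjusted p under 0.05, where 5.11% of all genes lay, it gave 2 of the 61 MYC-activated genes, 0 of the 13 MYC-repressed genes, 2 of the 5 MLX and MondoA targets, 0 of the 19 cofactors, 1 of the 18 turnover genes, 1 of the 6 other binding proteins and 2 of the 12 hypoxia markers. Between the cell lines, 19 MYC-activated genes were called higher and 29 lower in HCC-LM3 cells, with a median log2 fold change of −0.12 beside 0.0052 over all genes. With scaling by library size only, 29 were called higher and 20 lower, so the list has no direction that holds under both. Of the 13 MYC-repressed genes, 4 were called higher and 7 lower, where 38.9% of all genes were called each way, and 5 were called higher and 6 lower with that scaling. CEBPA was the largest difference among those named, at −3.30 ± 0.10 (SE, edgeR adjusted p = 5.3e-15), with 245 and 294 counts in HCC-LM3 cells and 2325 and 2686 counts in Huh-7 cells.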

How the data were processed

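RNA was sequenced from 4 libraries, 1 per cell line and shRNA. The authors deposited raw counts and FPKM per gene symbol, with FPKM equal to the count over a whole-number length and the library total. The submitters' notes name Bowtie 0.12.2 and mouse builds without a role. The study's methods name another library kit than the labels, and no source used here gives the read counter or annotation.

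Members and gene lists were chosen with earlier results of these data known. Counts were scaled by TMM (edgeR 4.0.16, R 4.3.3) to CPM, and 0.5 was added before log2. Both libraries of a line were compared at 2-fold in genes averaging 1 CPM or more, with exact conditional binomial 95% intervals (Clopper-Pearson). They cover counting error only. Fitted effects came from edgeR's robust quasi-likelihood test with cell line and shRNA as terms, adjusted by Benjamini-Hochberg over all genes, with a threshold of 0.05, and DESeq2 1.42.0 was an alternative. SE are the fitted value over the root of F. The scripts were tested on simulated data. The block rests on the cell line. A floor of 3 counts stands for 0. The order of the table's entries was compared with that of a Python 2 dictionary of 32768 places, in which 18994 symbols stood in order.

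Named genes were all members, WDR4 and METTL1, MGA, MLXIP and MLXIPL, up to 4 genes per list with the largest mean absolute log2 fold change among genes of at least 5 CPM, and the 5 nearest to MYC. ENO2, PDK1, the exchanged symbols and the overlapping genes were named after their values were seen, as were cell type markers. Promoters came from RefSeq and coordinates from GENCODE release 29. Other values were made in Python 3.11.15 with scipy 1.17.1, pandas 2.3.3 and numpy 2.4.6.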

Additional observations from a re-analysis of the deposited data

Results flagged for a closer look

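The fold changes of MXI1 with sh-WDR4-2 ran in opposite directions in the cell lines, at 0.84 in HCC-LM3 cells and −0.094 in Huh-7 cells on the log2 scale. MNT also did so, at 0.098 in HCC-LM3 cells and −0.11 in Huh-7 cells, and MLX, at −0.10 in HCC-LM3 cells and 0.0078 in Huh-7 cells. With 1 library per group none of these differences was tested. The counting interval of the difference lay above 0 for MXI1 and for MNT (0.09 to 0.32) and included 0 for MLX (−0.24 to 0.02). A difference as large as that of MXI1 was seen in 0.546% of genes, that of MNT in 26.0% and that of MLX in 50.5%.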

How the results depend on the processing

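No member passed 2-fold in either cell line under other size factors, other pseudocounts (0.1 or 1 CPM), other filters or with the exchanged symbols returned, and with a 1.5-fold threshold 1 passed in HCC-LM3 cells (MXI1) and 0 in Huh-7 cells. The common effect called 0 members under each alternative, the fit without the cell line as a block included. Between the cell lines, 8 members were called with TMM and 7 to 9 under the alternatives, 8 to 9 when each library was left out with the cell line as the only term. The 7 came with a mean of at least 10 CPM, which leaves MYCL out. Of 144 values of single members under alternatives, all kept their sign and 3 gained a call, those of MXI1 between the cell lines: −1.34 with DESeq2, and −1.78 and −0.94 without HCC-LM3 sh-WDR4-2 and without HCC-LM3 sh-NC, with the cell line as the only term.

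The log2 ratio of MYC family to antagonist FPKM is given for HCC-LM3 sh-WDR4-2, HCC-LM3 sh-NC, Huh-7 sh-WDR4-2 and Huh-7 sh-NC in this order. Without division by length it was −0.29, −0.13, 0.93 and 0.99, without MNT 0.59, 0.76, 1.97 and 2.04, and without MXI1 (chosen after seeing the data) 0.78, 0.75, 2.42 and 2.49. With the exchanged symbols returned it stayed within counting error. Depth limits MYCL, at 39 to 131 counts, and MYCN.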
